A study of Arabidopsis thaliana with 6 samples.

Results

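The genes that build and lignify the secondary wall were examined in inflorescence apices of *Arabidopsis thaliana*, as a set of 41 loci among the 32678 genes measured. The members were chosen by function as a list of loci: 9 transcription factors, 9 genes for cellulose and xylan, 17 genes for lignin monomers and laccases, and 6 other genes of wall deposition and xylem differentiation. RNA of 3 wild type and 3 *bpcV* samples was sequenced after poly-A selection. Wild type is Columbia-0 (Col-0), and *bpcV* is the quintuple mutant *bpc1-2 bpc2 bpc3 bpc4 bpc6* in the same ecotype, which carries mutations in 5 genes of the BASIC PENTACYSTEINE (BPC) family. All plants were untreated and grown in long days, their age was not given, and the apices carried flowers up to stage 12, so flower organs of several stages share each library. Whether each sample held 1 plant or a pool was not stated, and *bpcV* is a single combination of alleles. The methods of the study call the samples of a genotype biological replicates, and p-values measure the spread between those samples.

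The secondary wall is laid down inside the primary wall once a cell has stopped growing, in xylem vessels, in fibres and, in the flower, in the endothecium of the anther. It is made of cellulose, xylan and lignin. NAC transcription factors switch the program on, the MYB factors below them drive the enzymes, and laccases and peroxidases polymerise the lignin monomers in the wall. BPC proteins are plant-specific transcription factors that bind GA-rich repeats.

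Libraries held between 16196042 and 21455150 expected counts, which RSEM estimates from the alignments. Of 20813 genes that passed the filter on low counts, 809 (3.89%) differed between the genotypes in the quasi-likelihood test of edgeR, with a threshold of 0.01 on the Benjamini-Hochberg false discovery rate (FDR), 345 higher in *bpcV* (1.66%) and 464 lower (2.23%). That number changed when 1 library was left out, which also leaves fewer replicates. It was 172, 167 and 204 without wild type replicate 1, 2 or 3. Without *bpcV* replicate 1, 2 or 3 it was 1249, 649 and 256. Of the 5 mutated genes, 4 were lower, with log2 fold changes of -5.25 in *BPC1*, -4.43 in *BPC2*, -4.48 in *BPC6* and -0.62 in *BPC4*. *BPC3* lay above 0, with a log2 fold change of 0.38, and did not pass the threshold (FDR 0.292 in edgeR). All 8 flower and meristem markers were measured, and none of them was called, with a lowest FDR of 0.0154 in edgeR. Log2 fold changes of these markers were below 0 for 4 and above 0 for 4. An unadjusted p under 0.05 in edgeR was reached by 3 of the 8, all higher in *bpcV*, against 28.3% of all genes tested in either direction. In bulk samples, fewer cells of a type and less RNA per cell cannot be told apart.

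Only 1 member passed the threshold. *CESA7* (AT5G17420), which encodes a catalytic subunit of the cellulose synthase of secondary walls, fell to 54.97% of its wild type level in *bpcV*. Its partners in the same complex, *CESA4* (AT5G44030) and *CESA8* (AT4G18780), had 101% and 102%. Of the 41 members, 40 passed the filter, 1 was called lower and 0 were called higher, where 2.23% and 1.66% of all genes tested were called in those directions. The remaining 39 members tested had log2 fold changes between -0.70 and 0.46.

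The promoters of *CESA7* and *CESA8* are shown first, because these subunits work together and only *CESA7* was called. Each is the stretch of 250 bases upstream of the start of the annotated gene, read 5′ to 3′ on the strand of the gene from TAIR10.1. Capitals mark the letters GAGAGA or their reverse complement, a simple form of the GA-rich repeat. *CESA7* lies on the minus strand at chr5:5736630-5741500 and its window is chr5:5741501-5741750. *CESA8* lies on the minus strand at chr4:10312624-10316886 and its window is chr4:10316887-10317136, which overlaps a non-coding RNA gene, AT4G06845.
CESA7: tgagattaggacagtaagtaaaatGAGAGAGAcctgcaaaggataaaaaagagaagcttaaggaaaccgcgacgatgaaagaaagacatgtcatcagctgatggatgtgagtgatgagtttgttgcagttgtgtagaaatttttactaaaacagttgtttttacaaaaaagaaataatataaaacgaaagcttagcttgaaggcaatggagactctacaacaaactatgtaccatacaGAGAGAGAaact
CESA8: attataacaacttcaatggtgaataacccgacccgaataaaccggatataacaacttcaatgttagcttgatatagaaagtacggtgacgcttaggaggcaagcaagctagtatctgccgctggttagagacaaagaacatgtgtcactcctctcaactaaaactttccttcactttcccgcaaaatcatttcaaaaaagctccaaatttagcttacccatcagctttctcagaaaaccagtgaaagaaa
The *CESA7* window held 4 overlapping matches to GAGAGA in 2 places, from 226 to 219 and from 12 to 5 bases upstream of the gene. The *CESA8* window held none. *CESA4* (chr5:17714390-17719723, plus strand) held none in its 250 bases either, and its window is not shown because it lies in an exon of the neighbouring gene AT5G44020. Within 1000 bases upstream, however, all 3 *CESA* genes held a match. A match is a run of letters and was not tested as a binding site.

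Transcript levels of the *CESA* genes were compared in TPM, a unit that RSEM scales by gene length and by library. *CESA7* had 13.2, 13.6 and 13.5 TPM in wild type replicates 1, 2 and 3 and 7.26, 7.41 and 7.62 TPM in *bpcV* replicates 1, 2 and 3. The genotypes were far apart, and replicates within a genotype were close together. The log2 fold change of *CESA7* in *bpcV* relative to wild type was -0.86 (standard error 0.0802, FDR 0.000788 in edgeR's quasi-likelihood test). Leaving out each library in turn kept it between -0.89 and -0.84 and under the threshold, with a highest FDR of 0.00841 in edgeR without wild type replicate 2.

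*CESA4* and *CESA8* were not chosen by the rule for named genes and are given as the partners of *CESA7*, after their values were seen. *CESA4* had 22.4, 21.9 and 24.4 TPM in wild type and 23.5, 22.0 and 24.1 TPM in *bpcV*. For *CESA8* the values were 15.3, 14.96 and 16.8 TPM in wild type and 17.1, 15.2 and 16.2 TPM in *bpcV*. The genotypes overlapped for both genes. *CESA4* had a log2 fold change of 0.01 (FDR 0.947, standard error 0.0822) and *CESA8* one of 0.03 (FDR 0.856, standard error 0.0831) in edgeR's quasi-likelihood test, and several alternatives moved either value to the other side of 0. *CESA8* had expected counts that were not whole in all 6 libraries, so RSEM divided some of its reads with another gene. It shares 481 bases with AT4G18770 and 81 with AT4G06845, both on the other strand, and the strand of the reads was not stated.

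**Figure D1:**
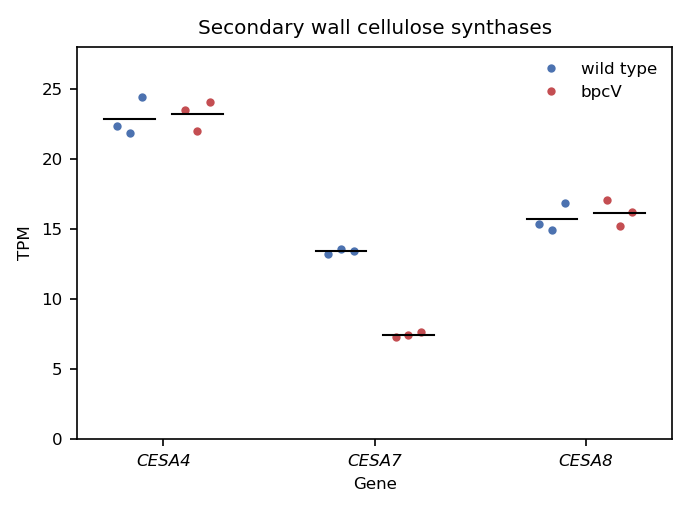
Levels of the 3 secondary wall cellulose synthase genes in TPM on a linear axis that starts at 0, with 1 point for each library (blue, wild type; red, *bpcV*) and a bar at the mean of 3 libraries. *CESA7* lies between 13.2 and 13.6 TPM in wild type and between 7.26 and 7.62 TPM in *bpcV*, while the points of *CESA4* and *CESA8* overlap between the genotypes.

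The balance among the subunits was followed as a ratio of TPM within each library. *CESA7* relative to *CESA4* was 0.591, 0.622 and 0.551 in wild type and 0.309, 0.337 and 0.316 in *bpcV*. Relative to *CESA8* it was 0.862, 0.909 and 0.799 in wild type and 0.426, 0.487 and 0.471 in *bpcV*. *CESA8* relative to *CESA4* ranged from 0.684 to 0.690 in wild type and from 0.672 to 0.725 in *bpcV*. Both ratios with *CESA7* separated the genotypes completely and the ratio without it did not. These ratios were chosen after the values of *CESA7* had been seen, and the first pair repeats its difference. A two-sided exact permutation test gave p = 0.1 (adjusted 0.15 over the 3 ratios) for each ratio with *CESA7* and p = 0.7 (adjusted 0.7) for the other, and 0.1 is the smallest p that 3 libraries against 3 allow.

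The neighbours of *CESA7* on chromosome 5 were also listed, after its value was seen. Of the 10 nearest genes tested, 5 on each side, 1 was called, where 3.89% of all genes tested were called. Log2 fold changes of the 10 ranged from -1.23 to 0.61. The gene called was AT5G17460, which had 15.2 CPM (counts scaled by library size) on average in wild type and 6.46 CPM in *bpcV* (log2 fold change -1.23, FDR 0.00116 in edgeR). Without wild type replicate 2 its FDR was 0.0101 in edgeR, just outside the threshold. AT5G17410 is on the opposite strand and shares 66 bases with *CESA7*, and its log2 fold change was 0.16 (FDR 0.426 in edgeR). The expected counts of *CESA7* were whole in every library.

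Among the regulators, the NAC and MYB transcription factors of the secondary wall, 0 of 8 genes tested were called in either direction. All 8 had a log2 fold change below 0, with a median of -0.48, where 48.5% of all genes tested were below 0 and the median was 0.01. A wider list of 25 further secondary wall regulators tested did not share this, with 14 below 0, 11 above 0 and a median of -0.13. The lists differ in kind, because the wider one also holds *VNI2*, which represses vessel formation. The levels of the member regulators were low, and the highest wild type mean was 6.97 TPM. The summed level of the 9 genes was 31.0, 29.5 and 33.6 TPM in wild type and 26.2, 19.1 and 24.1 TPM in *bpcV*. Every *bpcV* sum lay below every wild type sum, and the ratio of the means was 0.737. *bpcV* replicate 2 was the lowest *bpcV* library for 6 of the 8, where it was the lowest for 37.3% of all genes tested.

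*NST1* (AT2G46770), a NAC factor that switches on secondary wall formation in fibres and, with *NST2* (AT3G61910), in the endothecium, had 6.53, 6.05 and 8.32 TPM in wild type and 5.48, 4.56 and 4.52 TPM in *bpcV*. All *bpcV* libraries lay below all wild type libraries, but wild type replicate 2 and *bpcV* replicate 1 were close. *NST1* had a log2 fold change of -0.52 (standard error 0.162) and did not pass the threshold (FDR 0.0740 in edgeR). Its promoter is shown as that of the most abundant regulator, which carries the letters GAGAGA next to the gene start. *NST1* lies on the minus strand at chr2:19220725-19222916 and the window of 250 bases is chr2:19222917-19223166, with capitals as above.
NST1: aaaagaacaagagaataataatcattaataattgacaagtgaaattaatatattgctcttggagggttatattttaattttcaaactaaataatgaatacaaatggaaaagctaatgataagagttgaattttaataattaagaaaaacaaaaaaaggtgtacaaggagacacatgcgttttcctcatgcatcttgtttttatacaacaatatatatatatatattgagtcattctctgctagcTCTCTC
The only match lay on the opposite strand from 6 to 1 bases upstream.

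*MYB26* (AT3G13890), which acts upstream of *NST1* and *NST2* in the endothecium and is needed for anther opening, had 5.84, 5.76 and 6.75 TPM in wild type and 4.47, 2.23 and 4.55 TPM in *bpcV*. The genotypes did not overlap, and *bpcV* replicate 2 stood well below the other libraries. Its log2 fold change was -0.70 (standard error 0.259, FDR 0.121 in edgeR) and became -0.43 without *bpcV* replicate 2. *MYB46* (AT5G12870), a direct target of the NAC factors that in turn activates cellulose, xylan and lignin genes, had 6.17, 5.46 and 6.06 TPM in wild type and 5.30, 3.22 and 4.57 TPM in *bpcV*. As with *MYB26*, the genotypes did not overlap and *bpcV* replicate 2 was the lowest. *MYB46* had a log2 fold change of -0.44 (FDR 0.195, standard error 0.200 in edgeR) and became -0.26 without that library.

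The other regulators overlapped between the genotypes. *VND7* (AT1G71930), which drives vessel differentiation, had a log2 fold change of -0.66 (FDR 0.208), and *NST2* one of -0.54 (FDR 0.554) on 3 to 20 counts per library in edgeR. *MYB83* (AT3G08500), which acts redundantly with *MYB46*, had -0.36 (FDR 0.483 in edgeR). *MYB58* (AT1G16490) and *MYB63* (AT1G79180), which activate lignin genes, had -0.10 (FDR 0.785) and -0.17 (FDR 0.567) in edgeR. The whole of *MYB58* lies within a gene annotated on the other strand, AT1G16489, and the strand of the reads was not stated. *SND1* (AT1G32770), the partner of *NST1* in stem fibres, had 1 count in wild type replicate 3 and 0 in the other 5 libraries, and it was not tested.

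**Figure D2:**
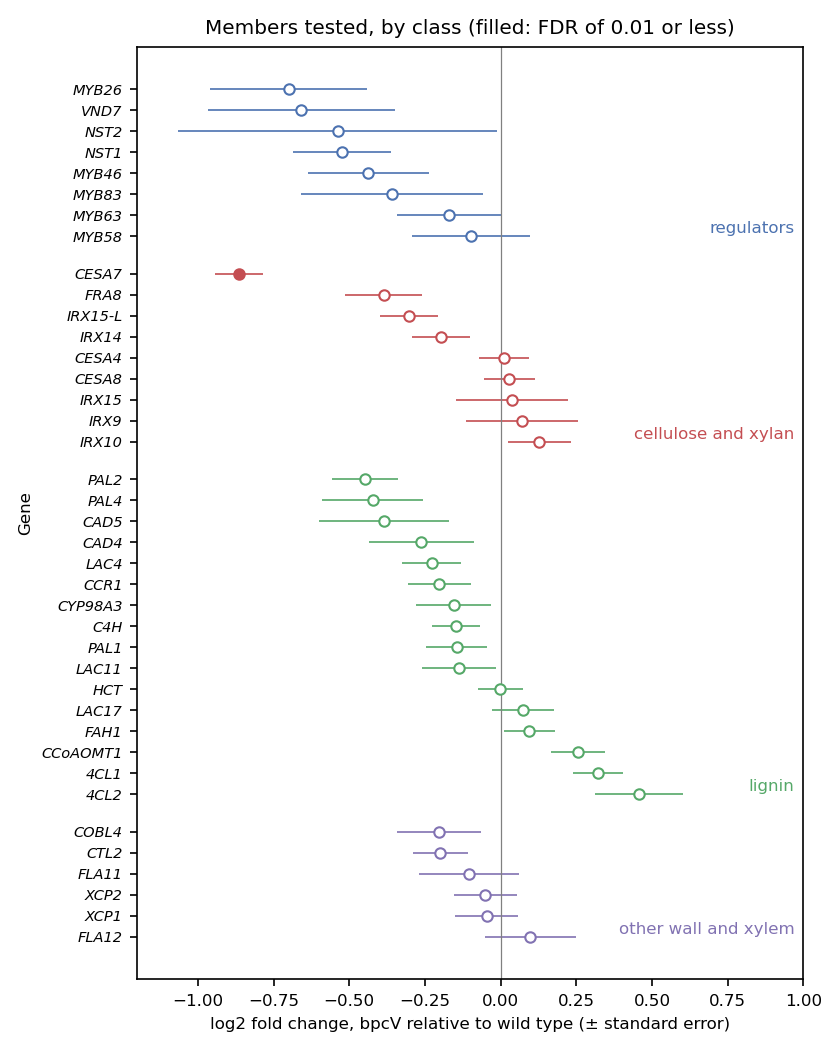
Log2 fold change of *bpcV* relative to wild type for 39 of the 40 members tested, with a bar of 1 standard error on each side, grouped and coloured by class. The filled point, *CESA7* at -0.86, is the only member past the FDR threshold, and all 8 regulators lie to the left of 0.

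Of the genes for cellulose and xylan, *CESA7* was the only one called among 9. Below 0 were 4 genes and above 0 were 5, with a median log2 fold change of 0.01. The summed level was 134, 130 and 141 TPM in wild type and 123, 119 and 121 TPM in *bpcV*, a ratio of 0.898. *CESA7* made up a part of that difference, as did the xylan genes *IRX14*, *FRA8* and *IRX15-L*.

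*FRA8* (AT2G28110), a glycosyltransferase for the sequence at the reducing end of xylan, had 10.15, 11.1 and 12.5 TPM in wild type and 8.11, 9.80 and 8.01 TPM in *bpcV*. *IRX15-L* (AT5G67210), needed for normal xylan together with *IRX15*, had 25.9, 23.0 and 22.3 TPM in wild type and 19.8, 18.5 and 19.6 TPM in *bpcV*. Neither gene overlapped between the genotypes, and the gap was smallest in *FRA8*. Log2 fold changes were -0.39 for *FRA8* (standard error 0.127, FDR 0.0903) and -0.30 for *IRX15-L* (standard error 0.0959, FDR 0.0791) in edgeR, so neither passed. *IRX14* (AT4G36890), a glycosyltransferase of the xylan backbone and the most abundant member of the class over the 6 libraries, though below *CESA4* in *bpcV*, had 25.4, 23.4 and 25.2 TPM in wild type and 19.5, 23.9 and 21.5 TPM in *bpcV*. Its TPM overlapped in *bpcV* replicate 2, while its CPM did not, and its log2 fold change was -0.20 (FDR 0.224 in edgeR), or -0.12 without *bpcV* replicate 1. The other backbone genes *IRX9* (AT2G37090) and *IRX10* (AT1G27440) had log2 fold changes of 0.07 and 0.13, and *IRX15* (AT3G50220) had 0.04, all with genotypes that overlapped.

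The lignin genes were the most abundant class, with wild type means from 14.6 to 259 TPM, and 0 of 17 were called in either direction. Their summed level was 1345, 1407 and 1420 TPM in wild type and 1367, 1432 and 1438 TPM in *bpcV*, with a ratio of 1.02. The sums overlapped, and on the CPM scale the ratio lay below 1, at 0.979. Underneath, 11 genes had log2 fold changes below 0 and 6 above 0, and the genotypes did not overlap in CPM for 9, 5 lower and 4 higher in *bpcV*. Over all genes tested the share without overlap was 35.8%, 17.6% lower and 18.2% higher.

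The pathway starts with phenylalanine ammonia-lyase, which makes cinnamic acid. *PAL2* (AT3G53260) had 56.8, 59.6 and 59.6 TPM in wild type and 37.7, 43.3 and 48.6 TPM in *bpcV*. *PAL4* (AT3G10340) had 60.7, 65.1 and 60.7 TPM in wild type and 34.1, 53.7 and 52.1 TPM in *bpcV*. In both genes the *bpcV* values lay under those of wild type without overlap, and *bpcV* replicate 1 was the lowest. The log2 fold change of *PAL2* was -0.45 (standard error 0.110, FDR 0.0352 in edgeR), past 0.05 but not the threshold of 0.01, and DESeq2 (FDR 0.00564) and the likelihood ratio test (FDR 0.00928) called it. Over all alternatives its FDR ranged from 0.00564 to 0.125. For *PAL4* it was -0.42 (standard error 0.167, FDR 0.144 in edgeR) and became -0.24 without *bpcV* replicate 1. *PAL1* (AT2G37040), the most abundant of the family here, had -0.15 (FDR 0.396), and *C4H* (AT2G30490), which hydroxylates cinnamic acid, also had -0.15 (FDR 0.269) in edgeR.

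The next enzyme, 4-coumarate:CoA ligase, activates the acids, and its genes lay on the other side of 0. *4CL1* (AT1G51680) had 75.1, 74.0 and 71.3 TPM in wild type and 89.4, 98.9 and 89.3 TPM in *bpcV*. *4CL2* (AT3G21240) had 14.6, 15.1 and 14.1 TPM in wild type and 15.7, 22.8 and 21.8 TPM in *bpcV*. Neither gene overlapped, though *4CL2* in *bpcV* replicate 1 was close to wild type. *4CL1* had a log2 fold change of 0.32 (FDR 0.0415, standard error 0.0831 in edgeR). That of *4CL2* was 0.46 (standard error 0.145, FDR 0.0806 in edgeR). Without *bpcV* replicate 1 it was 0.61 and passed the threshold (FDR 0.00217 in edgeR), the only one of 17 alternatives in which it did, with FDR values up to 0.241.

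*HCT* (AT5G48930), which moves the coumaroyl group to shikimate, was chosen after its values were seen, as a lignin gene whose promoter carries GAGAGA and whose level was alike in both genotypes. It had 82.9, 80.1 and 81.2 TPM in wild type and 84.9, 80.9 and 79.4 TPM in *bpcV*. The genotypes overlapped, with a log2 fold change of -0.00 (FDR 0.994, standard error 0.0744 in edgeR). *HCT* lies on the minus strand at chr5:19836299-19838235, and its window is chr5:19838236-19838485.
HCT: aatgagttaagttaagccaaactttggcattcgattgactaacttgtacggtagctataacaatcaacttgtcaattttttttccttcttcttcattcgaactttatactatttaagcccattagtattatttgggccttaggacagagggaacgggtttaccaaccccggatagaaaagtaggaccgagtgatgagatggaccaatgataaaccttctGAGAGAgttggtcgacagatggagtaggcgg
GAGAGA matched once, from 31 to 26 bases upstream. The same window held ACCAACC, a form of the AC element that MYB factors of the lignin pathway recognise, from 90 to 84 bases upstream. *CYP98A3* (AT2G40890), which hydroxylates the shikimate ester, had a log2 fold change of -0.15 (FDR 0.462 in edgeR) with genotypes that overlapped.

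*CCoAOMT1* (AT4G34050), which methylates caffeoyl-CoA, had the highest level of all members, with 241, 257 and 280 TPM in wild type and 327, 293.6 and 309 TPM in *bpcV*. All *bpcV* libraries were above all wild type libraries, but the log2 fold change of 0.26 did not pass the threshold (FDR 0.101, standard error 0.0883 in edgeR's quasi-likelihood test).

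*FAH1* (AT4G36220), which hydroxylates the ring on the way to syringyl units, had a log2 fold change of 0.09 (FDR 0.511 in edgeR) and overlapped. *CCR1* (AT1G15950), the first reductase specific to monolignols, had -0.20 (FDR 0.246 in edgeR) without overlap, but its gene shares 2457 bases with AT1G05213 on the other strand, and its expected counts were not whole. The alcohol dehydrogenases *CAD4* (AT3G19450) and *CAD5* (AT4G34230), which make the final monolignols, had log2 fold changes of -0.26 (FDR 0.369) and -0.39 (FDR 0.284) in edgeR. For *CAD5* the *bpcV* values were 55.9, 106 and 96.8 TPM against 104, 116 and 118 TPM in wild type. Replicate 1 of *bpcV* stood far below the other libraries, and it was the lowest *bpcV* library for 11 of the 17 lignin genes. Over all genes tested it was the lowest for 38.0%.

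Laccases oxidise monolignols in the wall. *LAC4* (AT2G38080) had 37.3, 39.0 and 36.1 TPM in wild type and 33.7, 28.6 and 34.2 TPM in *bpcV*. The genotypes did not overlap, with a log2 fold change of -0.23 (FDR 0.173, standard error 0.0981 in edgeR), and the value became -0.15 without *bpcV* replicate 2. *LAC11* (AT5G03260) had -0.14 (FDR 0.513) and *LAC17* (AT5G60020) had 0.07 (FDR 0.690) in edgeR, both with overlap. *LAC17* shares 2266 bases with AT5G60022 on the other strand, and its expected counts were not whole.

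**Figure D3:**
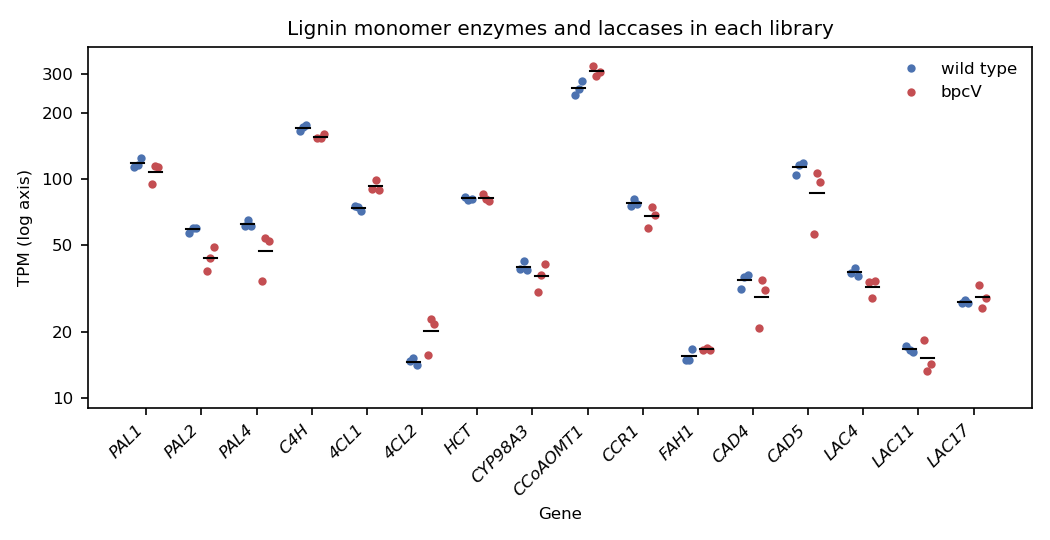
Levels of 16 of the 17 lignin genes in TPM on a log axis, ordered along the pathway, with 1 point for each library (blue, wild type; red, *bpcV*) and a bar at the mean of 3 libraries. *PAL2* and *PAL4* lie lower in *bpcV*, *4CL1*, *4CL2* and *CCoAOMT1* lie higher, and *HCT* is alike in both genotypes, with none of them past the FDR threshold.

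The remaining class held genes of cellulose deposition, wall proteins and xylem proteases, and 0 of 6 were called. Its summed level was 265, 245 and 251 TPM in wild type and 244, 228 and 254 TPM in *bpcV*, and the sums overlapped. *CTL2* (AT3G16920), a chitinase-like protein tied to cellulose of secondary walls, had 34.4, 32.9 and 37.3 TPM in wild type and 29.5, 29.0 and 32.6 TPM in *bpcV*. It was the only gene of this class without overlap, and its log2 fold change was -0.20 (standard error 0.0901, FDR 0.191 in edgeR). *XCP2* (AT1G20850), a cysteine protease that clears the content of dying vessel cells, was the most abundant at 106, 96.4 and 91.2 TPM in wild type and 85.3, 99.2 and 99.9 TPM in *bpcV*. Its log2 fold change of -0.05 (FDR 0.791 in edgeR) turned to 0.01 without wild type replicate 1 and to 0.02 without *bpcV* replicate 1. The related *XCP1* (AT4G35350) had -0.05, *COBL4* (AT5G15630), which acts in cellulose deposition, had -0.20, and the fasciclin-like arabinogalactan protein genes *FLA11* (AT5G03170) and *FLA12* (AT5G60490) had -0.10 and 0.10.

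Over all 40 members tested, 28 had log2 fold changes below 0 and 12 above 0, with a median of -0.15. Among all genes tested 48.5% were below 0, and the median was 0.01. The genotypes did not overlap in CPM for 17 members, or 42.5%, 13 lower and 4 higher in *bpcV*. For all genes tested that share was 35.8%, 17.6% lower and 18.2% higher. At an unadjusted p under 0.05 edgeR gave 12 members, against 28.3% of all genes tested. With an FDR threshold of 0.05 in edgeR, *CESA7* and *PAL2* were lower and 2 members, among them *4CL1*, were higher, where 6.35% and 5.69% of all genes tested were called in those directions. The difference was small for most members: 35 had an absolute log2 fold change under 0.5, and 5, namely *CESA7*, *MYB26*, *VND7*, *NST2* and *NST1*, reached it, where 16.4% of all genes tested did.

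Replicates of *bpcV* varied more than those of wild type, in the members as over all genes. The coefficient of variation of CPM was larger in *bpcV* for 34 of the 40, with medians of 5.78% in wild type and 11.6% in *bpcV*. Over all genes tested it was larger in *bpcV* for 73.6%, with medians of 6.68% and 12.7%. Replicates 1 and 2 of *bpcV* shared nearly all of the lowest values, with 18 and 21 members, and replicate 3 was the lowest for 1. Over all genes tested replicate 3 was the lowest for 24.7%. *CESA7* had coefficients of 2.85% in wild type and 3.84% in *bpcV*, below both medians, and *HCT* had 1.84% and 2.38%.

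**Figure D4:**
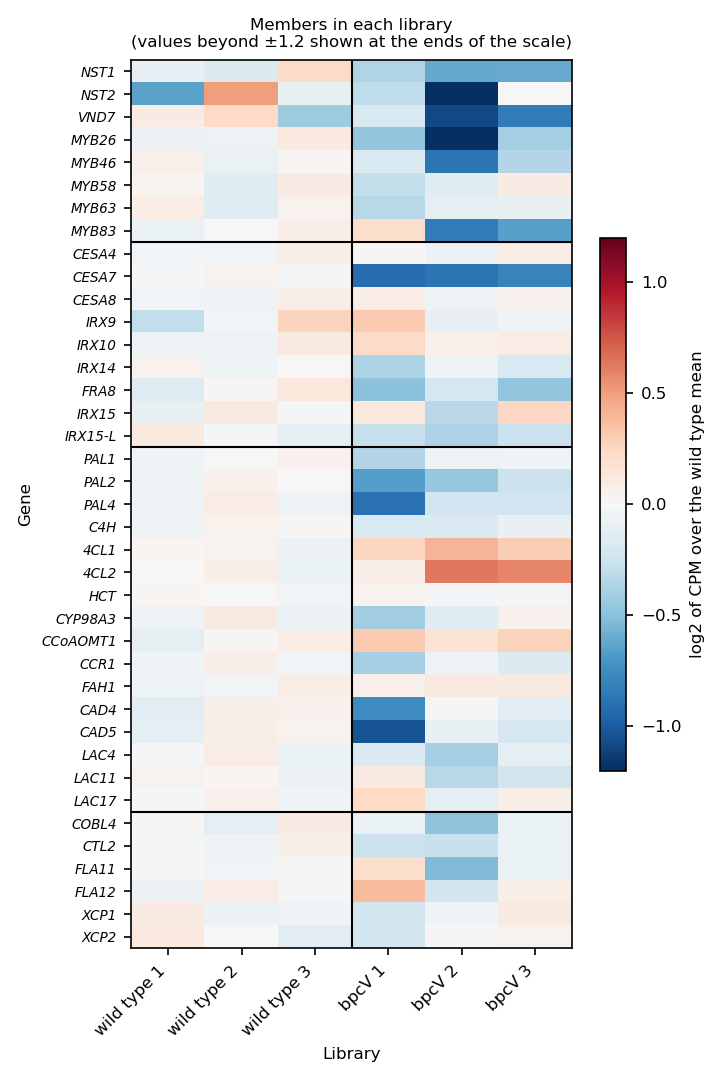
Log2 of CPM over the wild type mean for 39 of the 40 members tested (rows, with lines between the classes) in the 6 libraries (columns), from blue for lower to red for higher, with 2 values beyond the ends of the scale. *CESA7* is evenly lower in all 3 *bpcV* libraries, the regulators are lowest mostly in *bpcV* replicate 2, and *PAL4* and *CAD5* are lowest in *bpcV* replicate 1.

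The upstream 250 bases of all 41 members were searched on both strands for letters that the choice of members did not use, beside 20186 promoters of genes tested. GAGAGA was in 7 members, *NST1*, *VND7*, *MYB83*, *CESA7*, *IRX15-L*, *HCT* and *FLA11*, which is 17.1% where 19.9% of all promoters held it. All 7 had a log2 fold change below 0, though that of *HCT* crossed 0 in 6 of 17 alternatives, and so did 21 of the 33 members tested without it. Among all genes tested the share below 0 was 51.5% with GAGAGA and 48.2% without, and the shares called lower were 2.24% and 2.17%. Within 1000 bases the order among members was the other way, with 12 of 20 below 0 with GAGAGA and 16 of 20 without.

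AC elements, searched as ACCTACC or as ACCAACC or as ACCTAAC, were in 9 members, or 22.0%, where 6.15% of all promoters held one. Of these 9, 8 were lignin genes: *4CL2*, *HCT*, *CYP98A3*, *CCoAOMT1*, *CCR1*, *CAD5*, *LAC11* and *LAC17*. Their log2 fold changes lay on both sides of 0. *CESA4*, *FLA11* and *XCP1* held the tracheary element-regulating element, searched as CTTN directly followed by AAAGCNA, which 0.411% of all promoters held. *CESA7* and *CESA8* did not hold it, and both held the secondary wall NAC binding element, as did 42.2% of all promoters.

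Other genes of the same processes were counted from wider lists. Of the further secondary wall regulators, 1 of 25 tested was called, and that was *VNI2* (AT5G13180), a NAC factor that interacts with VND7 and represses vessel formation. It had 46.8, 48.1 and 49.1 TPM in wild type and 28.7, 34.2 and 27.2 TPM in *bpcV*, a log2 fold change of -0.68 (FDR 0.00543 in edgeR). None of 16 further xylan genes and none of 11 genes of primary wall cellulose was called in edgeR, with lowest FDR values of 0.0173 and 0.0106. In the same test 2 and 1 of them had an unadjusted p under 0.05, against 28.3% of all genes tested. Of 12 further lignin genes *PRX52* (AT5G05340), a peroxidase of lignin polymerisation, fell from 16.3, 19.9 and 30.7 TPM to 2.53, 7.90 and 2.99 TPM (log2 fold change -2.31, FDR 0.00992 in edgeR). Of 8 further laccases tested *LAC7* (AT3G09220) fell from 2.19, 2.82 and 4.78 TPM to 0.24, 0.66 and 0.26 TPM (log2 fold change -3.07, FDR 0.00429 in edgeR). Of 9 genes of xylem cell death and patterning *MAP70-5* (AT4G17220), a microtubule-associated protein of developing vessels, fell by 2.17 on the log2 scale (FDR 0.00594 in edgeR). None of these lists had a gene called higher. Leaving out single libraries kept the direction of *VNI2*, *PRX52*, *LAC7* and *MAP70-5*, but each lost its call without any one of the 3 wild type libraries or *bpcV* replicate 3, and *MAP70-5* also without *bpcV* replicate 1 or 2, with highest FDR values in edgeR of 0.0342, 0.0417, 0.0233 and 0.0325. Both limma fits also lost *PRX52* (FDR 0.0136 and 0.0162) and *LAC7* (FDR 0.0110 and 0.0118), and edgeR with 10 counts in every library lost *PRX52* (FDR 0.0104). *MAP70-5* averaged under 1 TPM, so neither limma fit tested it. With 10 counts required in every library, *MAP70-5* and *LAC7* were too low to be tested. The log2 fold change of *LAC7* was -1.59 in limma on log2(TPM + 1), against -3.07.

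Anthers hold the endothecium, so genes of stamens were given beside the members. Of 9 genes of anther opening and stamen maturation 1 was called, *DAD1* (AT2G44810), a lipase for jasmonic acid in filaments, which had 7.98, 6.65 and 5.30 TPM in wild type and 0.960, 1.86 and 0.670 TPM in *bpcV* (log2 fold change -2.52, FDR 0.00334 in edgeR). *DAD1* also lost its call without any one of the wild type libraries or *bpcV* replicate 3, with an FDR of up to 0.0194 in edgeR. The list did not lie on 1 side of 0: the genotypes did not overlap in CPM for 6 of the 9, 3 lower and 3 higher in *bpcV*. Over all genes tested 35.8% did not overlap, 17.6% lower and 18.2% higher. The summed level of the 9 ranged from 417 to 494 TPM in wild type and from 482 to 606 TPM in *bpcV*. *MYB21* (AT3G27810), a MYB factor of stamen maturation chosen after its values were seen, had a log2 fold change of 0.52 (FDR 0.0114 in edgeR), just outside the threshold. Of 14 tapetum markers 12 were tested, and all 12 had log2 fold changes below 0 with a median of -0.61, but none was called in edgeR. Of these markers 6 had an unadjusted p under 0.05 in edgeR, against 28.3% of all genes tested. Their summed level ranged from 331 to 592 TPM in wild type and from 229 to 338 TPM in *bpcV*. *DYT1* and *TDF1*, the earliest tapetum regulators of the list, were too low to be tested. The secondary wall regulators among the members also lay below 0, and the part of the tapetum markers in that result was not tested. The summed level of 10 pollen markers ranged from 2251 to 2364 TPM in wild type and from 2163 to 2769 TPM in *bpcV*, and that of 5 procambium and phloem markers from 188 to 197 TPM and from 172 to 193 TPM. Both ranges overlapped, and none of these 15 genes was called. For the 8 flower and meristem markers the sum ranged from 880 to 888 TPM in wild type and from 891 to 1082 TPM in *bpcV*. Those sums did not overlap, with a ratio of the means of 1.12. In CPM 3 of these 8 genes did not overlap, all higher in *bpcV*, where 18.2% of all genes tested were higher without overlap. The other 5 overlapped. Whether the mix of tissues differed between the genotypes was not tested.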

How the data were processed

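RNA of inflorescence apices from 3 wild type and 3 *bpcV* samples was sequenced as paired-end reads. The authors aligned them with Bowtie2 to the TAIR10 transcriptome and deposited the expected counts of RSEM for 32678 genes in each library, without normalization, together with TPM values that RSEM scales by effective gene length and library. Versions are not given in the sources used here, and neither is strandedness. The series also has a final table of scaled values, fold changes, p-values and FDR of the authors, which was not used. The study named the same edgeR test and FDR threshold and reported more differentially expressed genes than were called here. The reason for that difference was not tested.

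After rounding, genes with few expected counts were removed by filterByExpr (at least 10 counts, 15 in total). With TMM factors, edgeR 4.0.16 in R 4.3.3 fitted genotype alone, and its quasi-likelihood test was adjusted by Benjamini-Hochberg over 20813 genes, with an FDR threshold of 0.01. TPM was summed per class and not tested. The script was tested on simulated data with 200 changed genes. It called 3 of 50 genes with a true absolute log2 change of 0.5, 35 of 50 at 1 and 49 of 50 at 2. Library totals were 21455150, 17777219 and 18027075 in wild type and 16196042, 18335285 and 19951509 in *bpcV*. With 3 libraries a genotype, small differences can be missed, and lowly expressed members are the least precise.

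The members, gene lists and tests were chosen with earlier results of these data known. Values in each library are given for members past the threshold, then for those with the smallest p among members that do not overlap in CPM, up to 14 in all, and for the most abundant member of each class. The lignin genes include 1 member that is counted but not reported here by name, level or plot. In the wider lists genes past the threshold are named. Positions and promoters come from RefSeq (TAIR10.1), in which all 41 members matched. Where the expected counts of a member were not whole, which gene shared its reads was not tested. Alternatives were RLE factors, library totals, the likelihood ratio test, DESeq2 1.42.0, no filter, 10 counts in every library, no rounding, limma 3.58.1 for genes averaging 1 TPM or more, on the log2 of TPM plus 1 or plus 0.1, a replicate block, each library left out, and an FDR of 0.05. For class sums they were CPM in place of TPM and the most abundant member left out. Tables and plots were made with Python 3.11.15, pandas 2.3.3, numpy 2.4.6 and matplotlib 3.10.9.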

Additional observations from a re-analysis of the deposited data

How the results depend on the processing

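*CESA7* kept its direction and its call in all 17 alternatives, with log2 fold changes from -0.89 to -0.78. The median of the members stayed between -0.21 and -0.11 in 16 alternatives. The number of genes called over all genes was 2233 in the likelihood ratio fit, 1782 in DESeq2, 532 with limma on log2(TPM + 0.1), 2506 at an FDR of 0.05 and 167 to 1249 with 1 library left out. Members called higher were 1 in DESeq2, 2 at an FDR of 0.05 and 0 to 1 with 1 library left out (*4CL2* without *bpcV* replicate 1). Members called lower were 2 in DESeq2, in the likelihood ratio fit and at an FDR of 0.05, *PAL2* joining *CESA7* each time, and 1 in each fit with 1 library left out. With 1 library left out, small log2 fold changes crossed 0: *XCP2* ranged from -0.11 to 0.024, *CESA8* from -0.0050 to 0.076 and *CESA4* from -0.026 to 0.053. *HCT* ranged from -0.023 to 0.012 and was 0.0096 with library totals, 0.0051 in both limma fits. *CESA4* was also -0.0026 with 10 counts in every library. The lignin sum was 0.974 of wild type without *CCoAOMT1* and 0.979 in CPM, in place of 1.02. The cause was not tested. Deviations from the group means had correlations of -0.024, -0.0047 and 0.185 between same-numbered libraries and from -0.145 to 0.142 between the others. Only replicate 3 lay above that range, and the numbers were not used as pairs. With the replicate number as a block 408 genes were called, *CESA7* being the only member among them, while *VNI2*, *PRX52* and *MAP70-5* of the wider lists lost their calls. Tested regulators had from 3 to 154 counts in a library, which limits their precision, and small differences could be missed.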
